A study of Mus musculus with 8 samples.

Results

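The interferon regulatory factors (IRFs) described here were Irf1, Irf2, Irf3, Irf4, Irf5 and Irf8, the IRF genes outside the set of interferon-stimulated genes to which Irf7 and Irf9 belong. They were found by the gene symbol of each probe set in the platform annotation, keeping probe sets with a single symbol. The 6 genes had 12 probe sets between them, out of 45101 on the array, and were 6 of 18193 genes with a probe set. Each gene is represented by the probe set whose mean log2 signal over the 8 arrays was highest, and the remaining probe sets are given beside it. All 6 genes passed the filter on dim probe sets, which left 13983 genes for testing. Values are the deposited array signals, a brightness in arbitrary units that allows a probe set to be compared between arrays but not with another probe set.

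BALB/c mice supplied the primary CD4+ T cells, which were profiled in 4 groups of 2 arrays. The first group was stimulated for 1 h with anti-CD3 coated on the plate and anti-CD28 in solution, which engage the T cell receptor and its costimulatory receptor, and then kept for 6 h with 4 µM dorsomorphin. The second was stimulated in the same way and given DMSO, the solvent, in place of dorsomorphin. The third received 4 µM dorsomorphin without stimulation, and the fourth, called control here, neither. Dorsomorphin is a small-molecule kinase inhibitor known to block bone morphogenetic protein type I receptors and AMP-activated protein kinase, and the study asked how blocking bone morphogenetic protein signalling alters T cell activation. The labels do not say whether the 2 arrays of a group came from separate mice or cultures, so p-values speak only for the variation among these 8 arrays, some or all of it possibly technical. Only 1 dose and 1 time were measured, and 2 arrays a group limit how precise any value can be.

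IRFs are transcription factors that share a DNA-binding domain which recognises GAAA repeats in interferon-responsive promoters. Irf1, Irf2, Irf4 and Irf8 are controlled largely through how much of them is made, whereas Irf3 and Irf5 lie ready in the cytoplasm and are switched on by phosphorylation. In T cells Irf4 is induced through the T cell receptor in proportion to signal strength, and with Batf and Jun proteins it drives clonal expansion and effector differentiation, while Irf1 is induced by interferon gamma.

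The promoters of the 4 members that results below turn on are shown, because the known inducers of these genes act through short elements in them. Promoter windows from RefSeq (GRCm38.p6, 250 bases before to 50 after the annotated start) were matched by symbol for all 6 members. Capitals mark matches on either strand to TTCNNNGAA, the letters of a STAT-binding element, and to GAAA followed after any 2 bases by GAAA, a core of the interferon response element. All 4 windows lie on the plus strand. They are Irf4 at chr13:30748983-30749282, Irf8 at chr8:120736108-120736407, Irf1 at chr11:53769764-53770063 and Irf2 at chr8:46739495-46739794, with the first of 2 annotated windows shown for Irf8 and Irf1.
Irf4: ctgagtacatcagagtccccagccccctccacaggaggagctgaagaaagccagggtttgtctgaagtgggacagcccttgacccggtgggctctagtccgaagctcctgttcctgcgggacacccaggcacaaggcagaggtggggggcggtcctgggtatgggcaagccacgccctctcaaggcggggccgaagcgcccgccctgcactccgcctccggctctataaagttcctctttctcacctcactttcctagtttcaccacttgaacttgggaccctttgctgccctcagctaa
Irf8: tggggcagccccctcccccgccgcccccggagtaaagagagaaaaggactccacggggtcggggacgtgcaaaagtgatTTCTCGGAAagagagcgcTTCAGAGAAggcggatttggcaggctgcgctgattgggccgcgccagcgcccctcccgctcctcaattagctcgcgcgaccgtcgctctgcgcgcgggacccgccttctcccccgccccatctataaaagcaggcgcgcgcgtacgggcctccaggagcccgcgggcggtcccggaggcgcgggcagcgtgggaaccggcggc
Irf1: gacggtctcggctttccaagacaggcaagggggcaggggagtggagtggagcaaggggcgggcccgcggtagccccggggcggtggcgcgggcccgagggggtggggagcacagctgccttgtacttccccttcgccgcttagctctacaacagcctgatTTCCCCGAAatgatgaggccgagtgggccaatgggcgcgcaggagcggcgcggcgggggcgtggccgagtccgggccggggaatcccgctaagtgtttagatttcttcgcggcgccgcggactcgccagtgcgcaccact
Irf2: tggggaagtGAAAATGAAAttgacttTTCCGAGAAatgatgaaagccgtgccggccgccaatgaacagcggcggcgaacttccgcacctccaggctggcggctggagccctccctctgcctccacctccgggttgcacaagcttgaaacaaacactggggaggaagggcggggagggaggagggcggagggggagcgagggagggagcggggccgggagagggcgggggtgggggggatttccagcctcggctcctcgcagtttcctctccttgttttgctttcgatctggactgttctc
Counted from the annotated start, the Irf1 window held TTCCCCGAA at -90, the Irf8 window TTCTCGGAA at -171 and TTCAGAGAA at -153, and the Irf2 window TTCCGAGAA at -224. The Irf2 window also held GAAAATGAAA at -241. Neither motif was found in the windows of Irf4, Irf3 or Irf5. Of 32851 promoter windows of this length, 8.3% held TTCNNNGAA and 3.44% held the paired GAAA. These matches describe letters in the windows and were not tested as binding sites.

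Signals were deposited with a trimmed mean of 500 on every array, and array medians lay between 45.4 and 74.5. Summed over 11 CD4 T cell markers, the signal was 49942 to 51424 in stimulated dorsomorphin-treated cells, 79499 to 83713 in stimulated cells, 34171 to 47221 with dorsomorphin alone and 99499 to 100360 in control cells, and no marker was below the detection floor of 37.3 on both arrays of any group. Irf4, Irf5 and Irf8 are also made by B cells, macrophages and dendritic cells, so markers of these cells were summed as well. The 12 myeloid markers summed to 2278 to 2771, 2825 to 3092, 2492 to 2716 and 6545 to 13916 in the same order of groups, and the 9 dendritic cell markers to 705 to 963, 1485 to 3167, 530 to 736 and 1058 to 1665. The 10 B cell markers measured summed to 595 to 625, 357 to 547, 333 to 423 and 642 to 762, with Ebf1 below the floor on all 8 arrays. The brightest probe sets weigh most in these sums. By limma at an adjusted p below 0.05, 6 of the 11 CD4 T cell markers were lower with dorsomorphin alone than in control cells, against 11.1% of all genes. Their median difference was -2.06, against -0.24 over all genes. For stimulated with dorsomorphin against stimulated, 3 were lower and 1, Cd28 (0.86 ± 0.23), was higher, against 12.4% and 9.71% of all genes. In bulk RNA, fewer cells of a type and less RNA per cell cannot be told apart.

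Irf4 and Irf8 were high in stimulated cells and much lower in the other groups. Irf4 read 132 and 776 in stimulated dorsomorphin-treated cells, 13837 and 18617 in stimulated cells, 63.0 and 125 with dorsomorphin alone and 303 and 179 in control cells. Both stimulated arrays stood far above the other 6, whose values lay between 63.0 and 776. The geometric means were 320, 16050, 88.9 and 233 in the same order. Stimulated cells against control cells differed by 6.11 ± 0.86 (log2, SE, 95% interval 4.00 to 8.22, n = 2 arrays each), a 69.0-fold rise (limma moderated test, Benjamini-Hochberg adjusted p = 0.0119). With dorsomorphin added after stimulation, Irf4 was lower than in stimulated cells by 5.65 ± 0.86 on the log2 scale (-5.65, interval -7.76 to -3.54, limma adjusted p = 0.0109), which is 50.1-fold. The comparisons of stimulated cells with control cells and of stimulated dorsomorphin-treated cells with stimulated cells share the 2 stimulated arrays.

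Irf8, a relative of Irf4 best known for its role in myeloid and dendritic cell development and also induced in activated T cells, followed the same order of groups. It read 117 and 772 in stimulated dorsomorphin-treated cells, 4834 and 4514 in stimulated cells, 104 and 85.5 with dorsomorphin alone and 380 and 219 in control cells. Both stimulated arrays stood above the other 6, with no overlap. Irf8 rose 16.2-fold in stimulated cells against control cells (log2 difference 4.02 ± 0.85 SE, interval 1.92 to 6.11, limma adjusted p = 0.0254) and was 15.6-fold lower in stimulated dorsomorphin-treated cells than in stimulated cells (-3.96 ± 0.85, interval -6.06 to -1.86, limma adjusted p = 0.0261). Beside the Irf8 values, the dendritic cell marker Ccl22, a chemokine that activated T cells also make, read 141 and 209 in stimulated dorsomorphin-treated cells, 2146 and 1229 in stimulated cells, 93.8 and 88.6 with dorsomorphin alone and 181 and 135 in control cells. Of the 9 dendritic cell markers, 1 (Ccl22) rose for stimulated against control, where 8.98% of all genes rose. For stimulated with dorsomorphin against stimulated, 2 were called lower, where 12.4% of all genes were lower. These were Ccl22 (-3.25 ± 0.37, limma adjusted p = 0.00651) and the dim chemokine receptor Xcr1 (0.0226). Xcr1 was below the floor on both stimulated dorsomorphin-treated arrays (9.54 and 9.12) and on 1 stimulated array (24.3), so no size is given for it. Flt3 was below the floor on both stimulated arrays, and the other 8 were above it on at least 1 of them. Of the 12 myeloid markers, 3 (Lyz2, Csf1r and Adgre1) fell for stimulated against control, where 14.4% of all genes fell. For stimulated with dorsomorphin against stimulated 0 of them passed by limma, against 22.1% of all genes. Differences of the 12 myeloid markers in that second comparison ran from -2.65 for Mpeg1 (limma adjusted p = 0.0628) and -1.86 for Clec7a (0.0936) to 1.01 for Lyz2 (0.0610). The summed dendritic cell signal reached its highest value in stimulated cells, with a range that overlapped that of control cells. Ccl22 made up 2146 of 3167 and 1229 of 1485 of that sum on the 2 stimulated arrays. The median difference of the 9 dendritic cell markers for stimulated against control was -0.76, against -0.27 over all genes. The summed myeloid signal was highest in control cells. The part of contaminating cells in the Irf8 values was not tested.

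**Figure D1:**
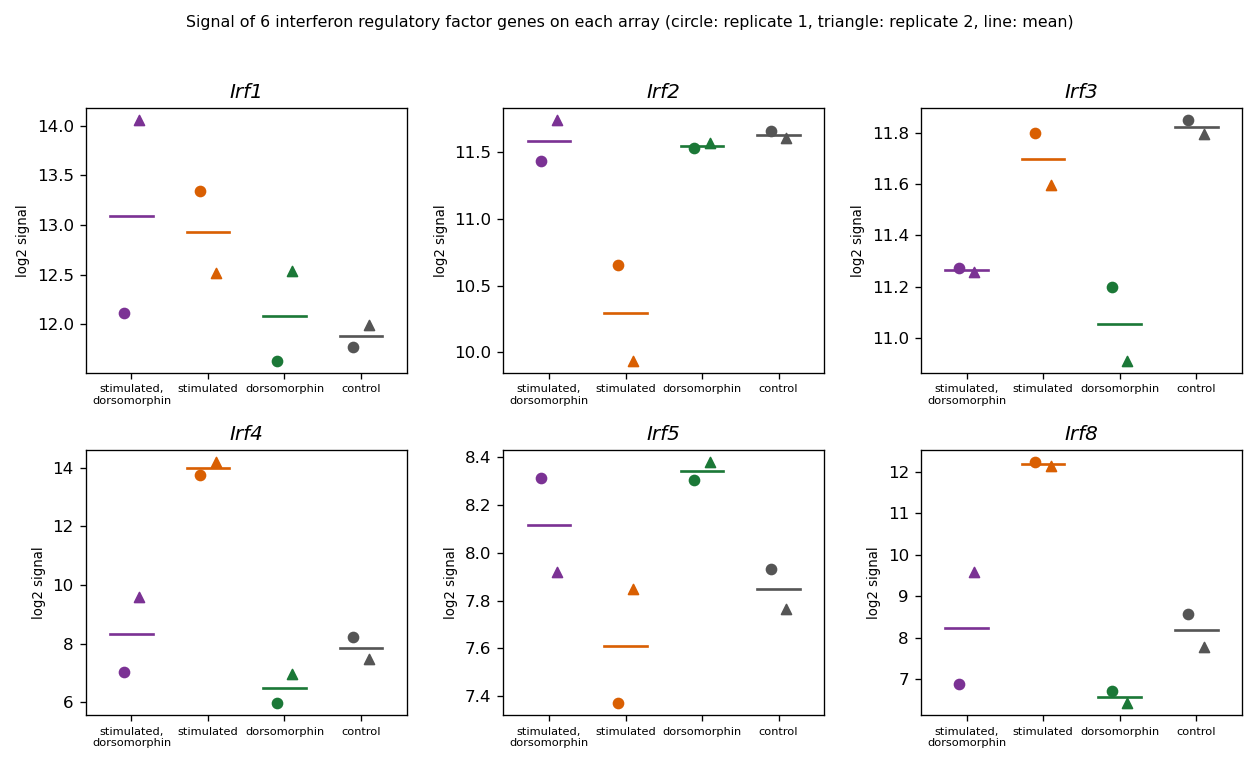
Log2 signal of each of the 6 genes on each array, 1 panel per gene, with the groups from left to right stimulated with dorsomorphin, stimulated, dorsomorphin and control. Circles are replicate 1, triangles replicate 2 and lines group means; Irf4 and Irf8 stand high on both stimulated arrays, Irf2 stands low there, and the 2 stimulated dorsomorphin-treated arrays lie far apart for Irf1, Irf4 and Irf8.

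Of the 6 genes, 3 passed the threshold (adjusted p below 0.05) between stimulated and control cells, Irf4 and Irf8 higher and Irf2 lower. Over all genes tested, 23.4% passed in that comparison, 8.98% higher and 14.4% lower. Between stimulated dorsomorphin-treated and stimulated cells 3 of 6 passed, Irf2 higher and Irf4 and Irf8 lower, where 22.1% of all genes passed, 9.71% higher and 12.4% lower. Separation of the arrays of 2 groups was common on its own. It occurred in 67.1% of all genes for stimulated against control and 27.5% for stimulated with dorsomorphin against dorsomorphin. For dorsomorphin against control the share was 65.5%, and for stimulated with dorsomorphin against stimulated 60.5%. How often 1 group stood apart from all other arrays, or both dorsomorphin groups from the other 2, was not counted over all genes. Leaving out 1 array at a time, the Irf4 difference between stimulated and control cells kept a size of 5.73 to 6.49 but missed the threshold without control replicate 1 (adjusted p = 0.0682), control replicate 2 (0.0818) or stimulated replicate 2 (0.0576), and that of Irf8 (3.62 to 4.41) without either control array (0.0950 and 0.127) or either stimulated array (0.0708 and 0.102). Without either control array 0 of the 13983 genes passed in that comparison.

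The 2 stimulated dorsomorphin-treated arrays differed widely for these genes. Irf4 was 5.87-fold and Irf8 6.62-fold higher on replicate 2 than on replicate 1, and gaps at least that large occurred in 4.08% and 3.38% of all genes. The drop relative to stimulated cells was present on both arrays. Without replicate 1 of the stimulated dorsomorphin-treated arrays, Irf4 differed from stimulated cells by -4.37 (limma adjusted p = 0.0344), and Irf8 by -2.60 (0.0401). Without replicate 2, the differences were -6.92 for Irf4 (0.0199) and -5.32 for Irf8 (0.0195). The Irf4 call for dorsomorphin in stimulated cells was lost only without stimulated replicate 2 (0.0570), and the Irf8 call without either control array (0.0513 for each) or either stimulated array (0.0787 and 0.101).

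The order of groups below the stimulated cells was less settled. Stimulated dorsomorphin-treated cells exceeded cells with dorsomorphin alone by 1.85 ± 0.86 for Irf4 (interval -0.26 to 3.96, unadjusted p = 0.0756 by limma) and by 1.67 ± 0.85 for Irf8 (-0.43 to 3.77, unadjusted p = 0.0989 by limma). In this comparison 0 of 6 members passed, as did 0% of all genes, and 0 members against 539 genes (3.85%) had an unadjusted p below 0.05 by limma. For both genes the stimulated dorsomorphin-treated arrays spanned the control arrays, with differences from control of 0.46 (-1.65 to 2.57) for Irf4 and 0.06 (-2.04 to 2.15) for Irf8, where 7.22% of all genes passed. Dorsomorphin alone gave lower values than control on both arrays for Irf4 (-1.39, interval -3.50 to 0.72, limma adjusted p = 0.330) and Irf8 (-1.61, interval -3.71 to 0.48, limma adjusted p = 0.259). Neither passed the threshold. Dorsomorphin alone stood 7.50 below stimulated cells for Irf4 and 5.63 below for Irf8, taken as stimulated minus dorsomorphin on the log2 scale (limma adjusted p = 0.00442 and 0.00775), a comparison in which 27.6% of all genes passed.

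The second probe sets of both genes had the same direction. Irf4 probe set 1421174_at read 50.5 and 197 in stimulated dorsomorphin-treated cells, 491 and 647 in stimulated cells, 30.5 and 40.7 with dorsomorphin alone and 62.4 and 44.8 in control cells. In a limma fit over all 32056 probe sets past the filter, its differences were 3.41 ± 0.65 for stimulated against control (adjusted p = 0.0271) and -2.50 ± 0.65 for stimulated with dorsomorphin against stimulated (0.0476). Irf8 probe set 1448452_at read 177 and 600.4 in stimulated dorsomorphin-treated cells, 2592 and 1650 in stimulated cells, 108 and 30.5 with dorsomorphin alone and 305 and 139 in control cells. Its differences were 3.33 ± 0.85 (limma adjusted p = 0.0524) and -2.67 ± 0.85 (0.0823) for the same comparisons, so the second Irf8 probe set did not pass. In that fit 14.8% and 18% of all probe sets passed in these comparisons.

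Irf2, which binds the same elements as Irf1 and acts mainly as its antagonist, showed the opposite pattern. It read 2766 and 3424 in stimulated dorsomorphin-treated cells, 1612 and 980 in stimulated cells, 2955 and 3034 with dorsomorphin alone and 3233 and 3118 in control cells. The 2 stimulated arrays lay below all 6 others, and the other 3 groups lay close together. Irf2 fell 2.53-fold in stimulated cells against control cells (-1.34 ± 0.30, interval -2.07 to -0.60, limma adjusted p = 0.0284). It was 2.45-fold higher in stimulated dorsomorphin-treated cells than in stimulated cells (1.29 ± 0.30, interval 0.56 to 2.03, limma adjusted p = 0.0316). Dorsomorphin alone differed from control by -0.08 (interval -0.82 to 0.65) and stimulated dorsomorphin-treated cells from control by -0.04 (-0.78 to 0.69).

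With 1 array left out at a time, the 2 Irf2 calls held in 3 and 1 of 8 omissions, those of Irf8 in 4 and 4, and those of Irf4 in 5 and 7. The stimulated against control call was lost without either control array (limma adjusted p = 0.138 and 0.131), without either dorsomorphin array (0.0508 for each) or without stimulated replicate 2, where the difference shrank to -0.98 (0.0962). The call for stimulated with dorsomorphin against stimulated held when stimulated replicate 1 was left out (0.0235) and was lost in each of the other 7 omissions, with adjusted p from 0.0556 to 0.114, while the difference over all 8 omissions lay between 0.93 and 1.65. With each array centred on its median, both calls were also lost, at -0.98 (0.0922) and 1.03 (0.0781).

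**Figure D2:**
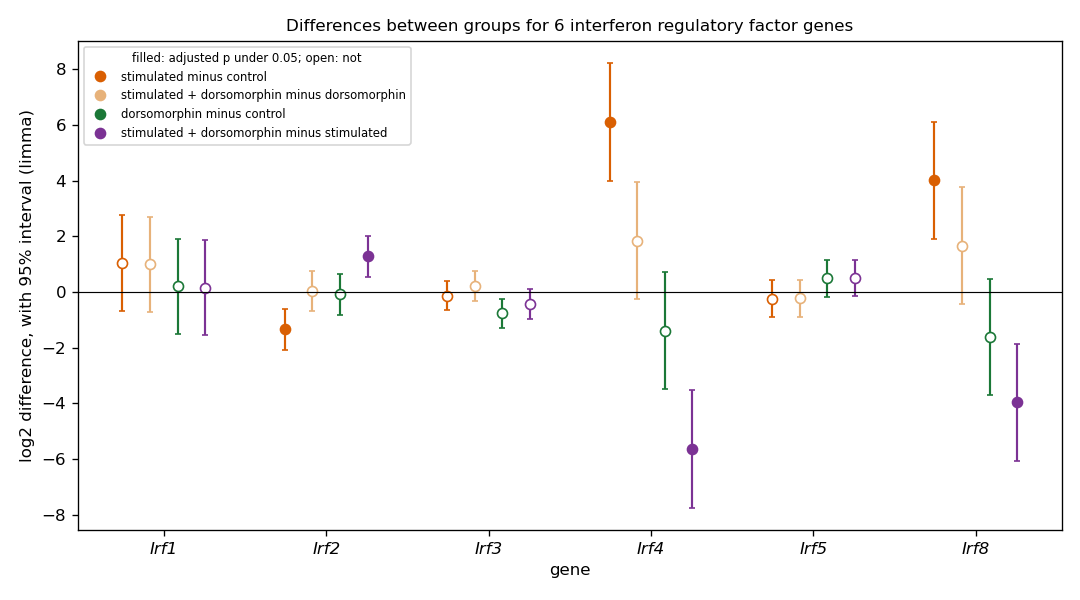
Log2 differences with 95% intervals from the limma fit, by gene, for the comparisons named in the legend. Filled points passed the adjusted threshold of 0.05; Irf4 and Irf8 lie far above 0 for stimulated minus control and far below 0 for stimulated with dorsomorphin minus stimulated, Irf2 runs the other way, and the intervals of Irf1 and Irf5 cross 0 throughout.

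Irf1, an activator of antigen presentation genes that is itself induced by interferon gamma, passed in no comparison. It read 4440 and 17048 in stimulated dorsomorphin-treated cells, 10370 and 5884 in stimulated cells, 3181 and 5934 with dorsomorphin alone and 3498 and 4078 in control cells. Both stimulated arrays exceeded both control arrays, and the stimulated dorsomorphin-treated arrays lay on either side of the stimulated ones. The difference was 1.05 ± 0.70 for stimulated against control (interval -0.66 to 2.76, limma adjusted p = 0.328) and 0.16 (-1.56 to 1.87) for stimulated with dorsomorphin against stimulated. Median centring turned the difference for dorsomorphin in stimulated cells to -0.10, and leaving out single arrays moved it between -0.82 and 1.13.

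The width of the Irf1 interval came with a 3.84-fold gap between the stimulated dorsomorphin-treated arrays, as large as that of 7.24% of genes. Of 12 genes with known Irf1 input, 10 read higher on replicate 2 and 6 at least 2-fold so, with a median gap of 0.95 on the log2 scale, against -0.09 over all genes, of which 7.37% were at least 2-fold higher on replicate 2. Of 13 T cell genes with known Irf4 input, 8 read higher on replicate 2 and 2 at least 2-fold so, with a median gap of 0.08, beside the 5.87-fold gap of Irf4 itself. Several of these genes were dim on the 2 arrays, where a gap has little meaning. Il21 (20.6 and 19.1) and Il9 (5.90 and 6.11) lay below the floor of 37.3 on both. Ccr8, counted as at least 2-fold higher, read 4.67 and 43.7. The 2 lists are therefore not compared on this point. Gbp2, an interferon-induced GTPase, read 1201 and 13858 in stimulated dorsomorphin-treated cells, 12237 and 5960 in stimulated cells, 554 and 1083 with dorsomorphin alone and 1465 and 1692 in control cells. Cd274, which encodes the checkpoint ligand PD-L1, read 500 and 6132, 6060 and 4108, 336 and 584, and 392 and 369 in the same order. Gbp2 and Cd274 had the largest upward gaps among the 12 genes with Irf1 input. Ciita (56.3 and 2.1, the second below the floor) and Casp1 (245 and 209) read lower on replicate 2 of the stimulated dorsomorphin-treated arrays. Ifng itself read 41.3 and 75.8 on the 2 stimulated dorsomorphin-treated arrays. What set these 2 arrays apart was not tested.

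Irf3, which is activated by the kinase Tbk1 and switches on interferon beta, passed in none of the comparisons of its brightest probe set, with a difference of -0.13 (interval -0.66 to 0.41) for stimulated against control. Its brightest probe set, 1426111_x_at, read 2473 and 2445 in stimulated dorsomorphin-treated cells, 3562 and 3100 in stimulated cells, 2351 and 1925 with dorsomorphin alone and 3692 and 3558 in control cells. Both dorsomorphin-containing groups lay below both groups without it, with no overlap. The differences were -0.77 ± 0.22 for dorsomorphin alone against control (interval -1.31 to -0.23, limma adjusted p = 0.0724, unadjusted p = 0.0129) and -0.43 ± 0.22 for stimulated with dorsomorphin against stimulated (-0.97 to 0.10, limma adjusted p = 0.213). In dorsomorphin against control 0 of 6 members passed by limma and 1 of 6 (Irf3) had an unadjusted p below 0.05, against 13.1% and 31.4% of all genes. Leaving out either control array, 0 of the 13983 genes passed there, so list genes called below for dorsomorphin alone rest on both control arrays. Irf3 passed in that comparison under 4 of 11 other settings, given with the dependence on processing.

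The probe sets of Irf3 disagreed. Probe set 1435271_at read 731 and 614 in stimulated dorsomorphin-treated cells, 174 and 285 in stimulated cells, 615 and 609 with dorsomorphin alone and 501 and 548 in control cells. It was low on both stimulated arrays, unlike the brightest probe set. In the fit over probe sets it differed by -1.23 ± 0.31 for stimulated against control (limma adjusted p = 0.0508), by 1.59 ± 0.31 for stimulated with dorsomorphin against stimulated (0.0240) and by 0.22 for dorsomorphin against control, where 8.33% of all probe sets passed. Probe set 1416898_a_at gave -0.37 for stimulated with dorsomorphin against stimulated and -0.60 for dorsomorphin against control, and 1438721_a_at gave 0.17 and 0.31. The direction of any Irf3 change with dorsomorphin therefore depended on the probe set.

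Irf5, a mediator of Toll-like receptor signalling in myeloid and B cells, passed in no comparison. It read 318 and 242 in stimulated dorsomorphin-treated cells, 166 and 231 in stimulated cells, 316 and 333 with dorsomorphin alone and 244 and 217 in control cells. Both dorsomorphin-alone arrays lay above the control arrays (difference 0.49 ± 0.27, interval -0.17 to 1.15, limma adjusted p = 0.272), and both stimulated dorsomorphin-treated arrays above the stimulated ones (0.51, -0.16 to 1.17, limma adjusted p = 0.236). The second probe set, 1460231_at, read 137 and 131, 174 and 104, 122 and 91.4, and 194 and 177 in the order of groups above. It gave -0.81 ± 0.33 for dorsomorphin against control (limma adjusted p = 0.185) and -0.003 ± 0.33 for stimulated with dorsomorphin against stimulated (0.997). The 2 Irf5 probe sets thus pointed opposite ways for dorsomorphin against control, and neither passed. The sums of B cell and myeloid markers, given above, were lower with dorsomorphin alone than in control cells, and their part in the Irf5 values was not tested.

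**Figure D3:**
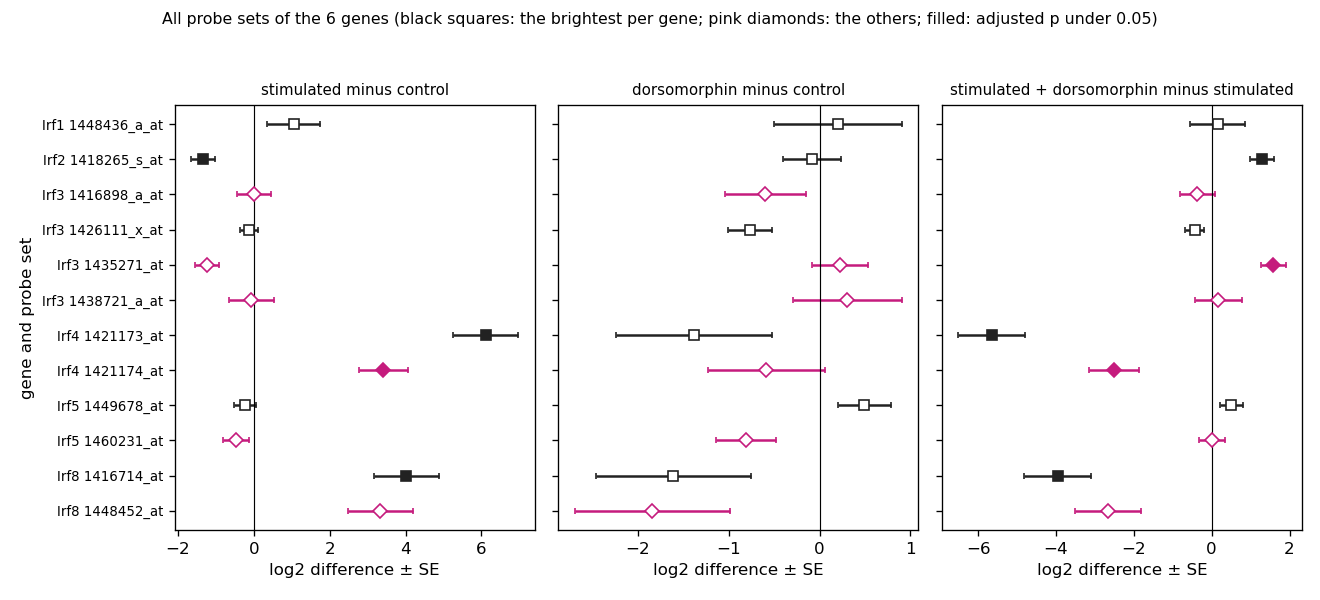
Log2 differences ± SE (x axis) of all 12 probe sets of the 6 genes (y axis), 1 panel per comparison, from the fit over probe sets. Black squares are the brightest probe set of a gene and pink diamonds the others; both Irf4 and both Irf8 probe sets point the same way in each panel. For stimulated minus control all 4 Irf3 and both Irf5 probe sets lie below 0, while for dorsomorphin minus control each of these genes has probe sets on both sides of 0, as Irf3 has for stimulated with dorsomorphin minus stimulated.

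The effect of dorsomorphin in stimulated cells minus its effect in unstimulated cells, the interaction, was tested directly. It was -4.26 ± 1.21 for Irf4 (interval -7.24 to -1.28, limma unadjusted p = 0.0131, adjusted p = 0.105), 1.38 ± 0.42 for Irf2 (0.34 to 2.41, unadjusted 0.0177, adjusted 0.117) and -2.35 ± 1.21 for Irf8 (-5.31 to 0.62, unadjusted 0.101, adjusted 0.273). By limma 0 of 6 members passed and 2 of 6 had an unadjusted p below 0.05, against 0.0858% and 26.4% of all genes. The effects of dorsomorphin with and without stimulation were therefore not shown to differ for any of the 6 genes, although the intervals of Irf4 and Irf2 exclude 0 before adjustment. For Irf1, Irf3 and Irf5 the interaction was -0.05, 0.33 and 0.01, with adjusted p of 0.982, 0.536 and 0.988 by limma.

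Genes known to act with or around these factors were followed as lists. Over all genes tested, 8.98% rose and 14.4% fell for stimulated against control, 1.92% and 11.1% for dorsomorphin against control, and 9.71% and 12.4% for stimulated with dorsomorphin against stimulated. On the T cell receptor route through NF-kappaB that leads to Irf4, 4 of 7 genes tested rose in stimulated cells against control cells and 0 fell, with a median difference of 1.13 against -0.27 over all genes. Malt1, a protease that carries antigen receptor signals to NF-kappaB, read 790 and 657 in stimulated dorsomorphin-treated cells, 4078 and 4200 in stimulated cells, 861 and 790 with dorsomorphin alone and 1199 and 1061 in control cells. It rose by 1.88 ± 0.22 with stimulation (limma adjusted p = 0.00926) and differed by -2.52 ± 0.22 for stimulated with dorsomorphin against stimulated (0.00576). Rel, the NF-kappaB subunit known to bind the Irf4 promoter, rose by 2.09 ± 0.37 with stimulation (limma adjusted p = 0.0170) and by 1.68 ± 0.37 with dorsomorphin alone (0.0402). With dorsomorphin alone, Bcl10 was also higher than in control cells (1.00 ± 0.23, limma adjusted p = 0.0430) and Prkcq lower (-1.47 ± 0.31, 0.0359). Nfkb2 fell with Malt1 in stimulated dorsomorphin-treated cells against stimulated cells (-1.94 ± 0.22, limma adjusted p = 0.00651), 2 of 7 in all. Rel did not pass in that comparison (-0.52 ± 0.37, limma adjusted p = 0.366). The lists were recounted without 4 single arrays, control replicate 1, stimulated replicate 2 and each stimulated dorsomorphin-treated array, and without stimulated replicate 2 the count of 4 fell to 1.

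Among DNA-binding partners of IRFs, 2 of 13 rose with stimulation, Nfatc1 (1.80 ± 0.35, limma adjusted p = 0.0214) and Ikzf3 (1.14 ± 0.26, 0.0301), with a list median of -0.46. Nfatc2, a calcium-dependent activator that cooperates with Irf4 at cytokine genes, was lower with dorsomorphin than without, in stimulated cells (-1.75 ± 0.29, limma adjusted p = 0.0130) and in unstimulated cells (-1.90 ± 0.29, 0.0186). Batf, the partner of Irf4 in T cells, read 1126 and 2024 in stimulated dorsomorphin-treated cells, 1854 and 3006 in stimulated cells, 1171 and 1589 with dorsomorphin alone and 1145 and 1199 in control cells, and did not pass. Of 3 genes for Irf2-binding corepressors, Irf2bpl was lower in stimulated cells than in control cells (-2.41 ± 0.37, limma adjusted p = 0.0134) and lower with dorsomorphin alone than in control cells (-1.64 ± 0.37, 0.0428). Without stimulated replicate 2, 0 genes of these 2 lists passed for stimulated against control, and Nfatc2 no longer passed in stimulated cells, nor did it without replicate 1 of the stimulated dorsomorphin-treated arrays.

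Of 13 T cell genes with known Irf4 input, 6 rose and 0 fell in stimulated cells against control cells, with a median of 1.04, and 0 rose and 5 fell in stimulated dorsomorphin-treated cells against stimulated cells, with a median of -0.97 against 0.07 over all genes. The cytokine Il17a read 68.7 and 93.1 in stimulated dorsomorphin-treated cells, 1607 and 1315 in stimulated cells, 28.9 and 14.7 with dorsomorphin alone and 48.5 and 51.6 in control cells. Il4, the type 2 helper cytokine, read 46.5 and 49.8, 1989 and 5652, 40.8 and 4.01, and 63.3 and 52.7 in the same order. Il17a, Il4 and Il10 rose by 4.86 ± 0.38, 5.86 ± 1.09 and 3.49 ± 0.75 with stimulation (limma adjusted p = 0.00784, 0.0186 and 0.0263) and differed by -4.18, -6.12 and -3.25 for stimulated with dorsomorphin against stimulated (0.00576, 0.0155 and 0.0319). Il21 was below the floor on both control arrays and both stimulated dorsomorphin-treated arrays, so its level in stimulated cells was at least 8.50-fold higher than in either. Prdm1, the effector regulator Blimp-1, fell with dorsomorphin alone (-1.66 ± 0.33, limma adjusted p = 0.0315). Without replicate 1 or replicate 2 of the stimulated dorsomorphin-treated arrays, 1 and 2 of the 13 genes passed as lower than in stimulated cells, and without stimulated replicate 2 the count that rose with stimulation was 1.

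Ligands, receptors and kinases of the interferon pathway, which lies upstream of Irf1 and Irf8, moved in opposite directions. Of 10 tested, 2 rose and 5 fell in stimulated cells against control cells, and 5 rose and 2 fell in stimulated dorsomorphin-treated cells against stimulated cells, 2 comparisons that share the stimulated arrays. Ifng read 41.3 and 75.8 in stimulated dorsomorphin-treated cells, 3448 and 6408 in stimulated cells, 21.0 and 44.2 with dorsomorphin alone and 71.1 and 62.5 in control cells. It differed by 6.14 ± 0.52 for stimulated against control (limma adjusted p = 0.00784) and by -6.39 ± 0.52 for stimulated with dorsomorphin against stimulated (0.00576). Ifngr1, which encodes the ligand-binding chain of the interferon gamma receptor, read 13327 and 11813, 3172 and 771, 13422 and 13962, and 9980 and 9163 in the order of groups above, low on both stimulated arrays. Its differences were -2.61 ± 0.63 (limma adjusted p = 0.0344) for stimulated against control and an 8.02-fold rise (0.0240) for stimulated with dorsomorphin against stimulated, and those of Ifngr2, the second chain, were -1.95 ± 0.32 (0.0146) and 2.67 ± 0.32 (0.00715). Tyk2, a kinase of the type I interferon receptor, was lower than control with dorsomorphin alone (-2.95 ± 0.25, limma adjusted p = 0.00975). Without stimulated replicate 2 the counts were 1 higher and 1 lower for stimulated against control and 3 higher and 1 lower for stimulated with dorsomorphin against stimulated, the same counts as in the second comparison without replicate 1 of the stimulated dorsomorphin-treated arrays.

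**Figure D4:**
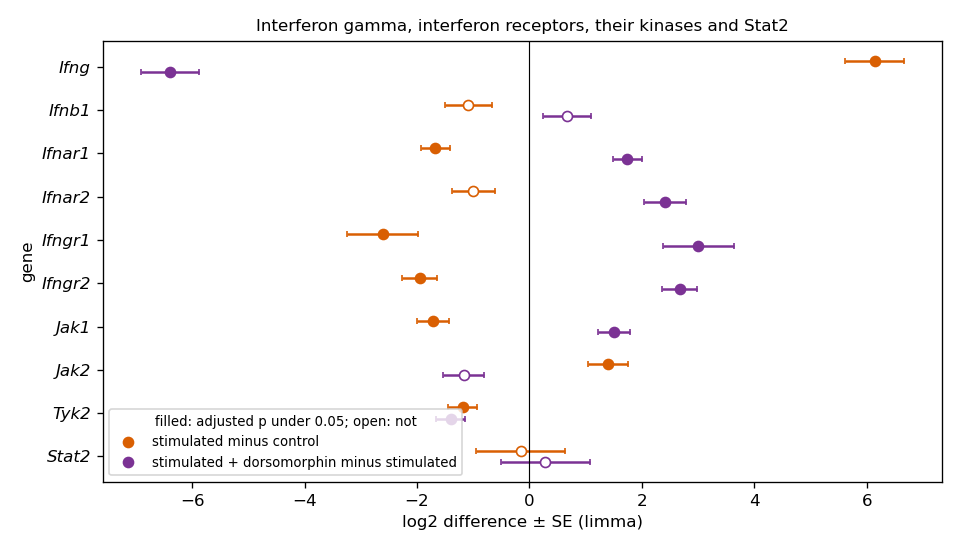
Log2 differences ± SE (x axis) of Ifng, Ifnb1, the interferon receptors, their kinases and Stat2 (y axis), for the comparisons in the legend. Filled points passed the adjusted threshold of 0.05. Ifng runs opposite to Ifngr1, Ifngr2 and Ifnar1, being higher in stimulated cells than in control cells while these receptors were lower.

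Of 12 genes with known Irf1 input, 2 rose and 0 fell with stimulation, Il12rb1 (3.26 ± 0.42, limma adjusted p = 0.0103) and Socs1 (3.09 ± 0.78, 0.0381), and the list median was 0.25. Nlrc5, the transactivator of MHC class I genes, read 190 and 332 in stimulated dorsomorphin-treated cells, 3938 and 2054 in stimulated cells, 192 and 238 with dorsomorphin alone and 2297 and 2152 in control cells. It was low wherever dorsomorphin was present, by -3.50 ± 0.42 in stimulated cells (limma adjusted p = 0.00719) and by -3.38 ± 0.42 in unstimulated cells (0.0125). Irf1 passed in neither comparison, with wide intervals of -1.56 to 1.87 and -1.51 to 1.91. The part of Irf1 in the Nlrc5 values was not tested. Il12rb1, the shared receptor chain for interleukins 12 and 23, was also lower in stimulated dorsomorphin-treated cells than in stimulated cells (-3.41 ± 0.42, limma adjusted p = 0.00730). Tap1, the peptide transporter, fell with dorsomorphin alone (-1.29 ± 0.30, 0.0439). Leaving out either 1 of the 2 stimulated dorsomorphin-treated arrays, 4 of 12 rose with stimulation, and without replicate 2 of them 5 of 12 were lower in stimulated dorsomorphin-treated than in stimulated cells. Without stimulated replicate 2, 1 of 12 rose with stimulation.

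Among kinases and adaptors that activate Irf3 and Irf5, 1 of 11 fell with stimulation, 3 of 11 fell with dorsomorphin alone and 5 of 11 were lower in stimulated dorsomorphin-treated than in stimulated cells, and 0 rose in any of the 3, where 14.4%, 11.1% and 12.4% of all genes were lower. Ikbke, the relative of Tbk1 that phosphorylates Irf3, read 338 and 441 in stimulated dorsomorphin-treated cells, 1614 and 814 in stimulated cells, 250 and 226 with dorsomorphin alone and 7070 and 7024 in control cells. The control arrays stood above all others. Ikbke differed from control by -4.89 ± 0.37 with dorsomorphin alone and by -2.62 ± 0.37 with stimulation (limma adjusted p = 0.00975 and 0.0118), both set against the same control arrays. Tbk1 read 9204 and 7825, 6458 and 4231, 8804 and 7284, and 9784 and 10226 in the order of groups above and did not pass. The count of 5 for stimulated with dorsomorphin against stimulated fell to 2 with median centring to 1 without stimulated replicate 2 or replicate 2 of the stimulated dorsomorphin-treated arrays, and to 0 without their replicate 1 or control replicate 1. Between stimulated dorsomorphin-treated cells and cells with dorsomorphin alone, 0 genes of any of these lists passed by limma.

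The genes whose log2 signal over the 8 arrays followed each member most closely are given as a description, by Pearson's r over 8 arrays in 4 groups. Irf4 was closest to Il2ra, the high-affinity interleukin 2 receptor chain (0.994), Stip1 (0.991) and Ranbp1 (0.991), and Irf8 to Mthfd2 (0.993), Ctsc (0.991) and Egr1 (0.987). Irf4 and Irf8 themselves had an r of 0.98 with each other, and Irf2 one of -0.86 with Irf4 and -0.79 with Irf8. Irf2 was closest to Nt5e (0.992), Itm2b (0.990) and Cdk19 (0.988). Irf1 was closest to Ifi47, an interferon-induced GTPase, at 0.993, which read 6284 and 30243 in stimulated dorsomorphin-treated cells and 18552 and 9467 in stimulated cells, and then to Insl6 (0.965) and Rcn1 (0.958). By their brightest probe sets, Irf3 was closest to Nup210 (0.995), Rbck1 (0.991) and Gon4l (0.990), and Irf5 to B4galt3 (0.975), Gopc (0.970) and Gpn3 (0.958). The other probe sets of Irf3 and Irf5, some of which disagreed with the brightest, were not compared in this way.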

How the data were processed

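The deposited values are intensities of Affymetrix probe sets from biotin-labelled RNA, 8 arrays in 4 groups of 2. The submitters' processing notes name RMA and affy, with no version. RMA returns log2 values, while the deposited intensities run from 0.0605 to 63620 with a trimmed mean of 500 on every array (2% trimmed at each end), so the exact steps are not given in the sources used here. Of 45101 probe sets, 34945 had 1 gene symbol, 932 several, 9160 none and 64 were array controls. The log2 of the deposited intensities was taken with no further scaling. Per gene the probe set with the highest mean log2 was kept where at least 2 arrays reached the 40th percentile of all signals (37.3, 5.22 on the log2 scale). 1 limma model over all 4 groups (R 4.3.3, limma 3.58.1, lmFit and eBayes, 4 residual degrees of freedom) tested 13983 genes with Benjamini-Hochberg adjustment at 0.05. Tables were made with Python 3.11.15 (pandas 2.3.3, numpy 2.4.6), and the code was tested on simulated data. Alternatives covered normalization, log offset, filter, probe sets, variance model, replicate block and omitted arrays. A fit over probe sets, the 2 remaining group pairs and the recounted lists were added after seeing the data. The members, lists and tests were chosen with earlier results of these data known. Named were the 6 members with all their probe sets, up to 4 passing genes per list and comparison or list genes described beside a result, and the 3 genes most like each member. A list gene below the floor on both arrays of a group is given as a lower bound against the floor, or without a size where the other group was near the floor too. A further 14 list genes were not analysed here. Probe set and promoter symbols came from the platform annotation and RefSeq.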

Additional observations from a re-analysis of the deposited data

How the results depend on the processing

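Irf4 and Irf8 kept their direction under every setting tried, and passed between stimulated and control cells in 11 of 11 settings other than omitted arrays, and between stimulated dorsomorphin-treated and stimulated cells in 10 of 11. For stimulated dorsomorphin-treated against stimulated cells, fitting only the 2 groups compared left 0 of the 6 members past the threshold, and 0 of all genes against 3096. Omitting single arrays gave 0 to 3 members for stimulated against control and 0 to 2 for stimulated with dorsomorphin against stimulated. For dorsomorphin against control the count was 1 (Irf3) in place of 0 with quantile normalization (adjusted p = 0.0490), log2(value + 32) (0.0492), the 60th percentile filter (0.0300) and trend and robust eBayes (0.0203). For the interaction it was 1 (Irf4) with log2(value + 32) (0.0272) and the 60th percentile filter (0.0428), and 2 (Irf4 0.0374, Irf2 0.0303) with trend and robust, all by limma. Irf2 also lost both calls without a filter (0.0534 and 0.0592) and with only the 2 groups (0.0764 and 0.128). The cause of these changes was not tested.

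Differences that changed sign had not passed. With median centring these were, for stimulated against control, Irf3 (0.23) and Irf5 (0.12), for stimulated dorsomorphin-treated against dorsomorphin, Irf2 (-0.081), for dorsomorphin against control, Irf2 (0.13), for stimulated with dorsomorphin against stimulated, Irf1 (-0.10), and for the interaction, Irf3 (-0.14) and Irf5 (-0.46). Quantile normalization turned Irf5 for stimulated against control (0.19) and the interactions of Irf5 (-0.44) and Irf1 (0.20), and cyclic loess turned Irf5 (0.16 and interaction -0.42). The mean of all probe sets turned Irf5 for stimulated dorsomorphin-treated against dorsomorphin (0.058) and dorsomorphin against control (-0.16), and Irf3 for stimulated with dorsomorphin against stimulated (0.24). Omitting single arrays turned, at the ends of these ranges, Irf5 for stimulated against control (-0.48 to 0.0027), Irf2 for stimulated dorsomorphin-treated against dorsomorphin (-0.11 to 0.19), Irf1 for dorsomorphin against control (-0.25 to 0.65) and for stimulated with dorsomorphin against stimulated (-0.82 to 1.13), and the interactions of Irf1 (-1.02 to 0.92) and Irf5 (-0.23 to 0.25). The median of all genes was -0.27 as deposited and 0.08 with median centring for stimulated against control, and 0.35 and -0.12 for the interaction.

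Counts over all genes that moved by over 1.5 times were, for stimulated against control (3269), 2041 with median centring, 2122 without a filter, 1668 with only the 2 groups and 0 to 2940 with omitted arrays. For dorsomorphin against control (1825) they were 906 with median centring, 2870 with log2(value + 32), 927 without a filter, 2968 with the 60th percentile, 1058 with the mean of probe sets, 3103 with trend and robust, 883 with only the 2 groups and 0 to 1591 with omitted arrays. For stimulated with dorsomorphin against stimulated, omitted arrays gave 1000 to 2648. For the interaction (12) they were 0 with median centring, without a filter or with the replicate block, 384 with quantile, 46 with loess, 1565 with log2(value + 32), 1867 with the 60th percentile, 3 with the mean of probe sets, 2036 with trend and robust and 0 to 803 with omitted arrays. For stimulated dorsomorphin-treated against dorsomorphin (0) the 60th percentile gave 2.

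Replicate numbers recur in the groups, but the labels do not say what they mark, and deviations of same-numbered arrays correlated at 0.0687 to 0.178. With the replicate number as a block (replicate block), 3 members passed for stimulated against control, 3 for stimulated with dorsomorphin against stimulated and 0 in the other 3 comparisons, as without it. With 2 arrays a group and 4 residual degrees of freedom, intervals are wide, and signals near the floor have little precision.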
